A study of Sus scrofa with 12 samples.

Results

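HOX genes encode homeodomain transcription factors that give cells their position along the head-to-tail axis and along the limbs. In mammals they lie in 4 clusters, HOXA to HOXD, and paralogs with the same number in different clusters are relatives by descent. Numbers run along each cluster from its 3' end: low-numbered genes are switched on early and in front, and high-numbered genes late and towards the tail and the limb tip. Cultured fibroblasts are known to keep a HOX pattern of the body site they came from, while HOX clusters in pluripotent cells are largely held silent by Polycomb proteins.

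The members were all loci of the deposited table whose symbol is HOXA, HOXB, HOXC or HOXD followed by a number. There were 40 such rows of 30012, and they stood for 34 genes: 10 of HOXA, 8 of HOXB, 9 of HOXC and 7 of HOXD. Where a gene had more than 1 row, the row with the highest mean over all 12 libraries was used, which set 6 rows aside. HOXA6, HOXB4, HOXD3 and HOXD11, which the RefSeq pig gene table for Sscrofa11.1 also names, are not analysed here.

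RNA-seq libraries came from 4 groups of pig cells with 3 libraries each. The fibroblasts came from a fetus at 30 days post coitum and were used at passage 6; the labels name no body site for them. ESC3 and ESC7 are parthenogenetic embryonic stem cell lines, from eggs activated without sperm, and ESC11 derives from an embryo of in vitro fertilisation (IVF), so the IVF origin rests on 1 line. All 3 lines grew on feeder cells. Their medium held 15% KSR (a serum replacement), 20 ng/mL of FGF2, 2.5 µM of IWR-1, 1.5 µM of CH and 5 ng/mL of the activin named ActA, and Y-27632 was added at 10 µM for 24 h before and after passaging. The ESCs were sorted on magnetic columns for the surface antigen SSEA1, which takes out feeder and differentiated cells, and the species of the feeders is not given in the sources used here. The labels do not say whether libraries of the same group are separate cultures. A p-value here therefore rests on library-to-library spread that may be technical.

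Levels are in FPKM, that is fragments scaled to transcript length and to the mapped fragments of a library, so levels of different genes can be compared per length. Errors beside FPKM are standard deviations with n = 3. Read counts were not used here and the depth is unknown. The worth of 1 fragment relative to fibroblast library 1 was estimated from loci above 0 and under 0.3 FPKM in both libraries. The most common ratio of their values was 0.827 to 1.36 in the ESC and other fibroblast libraries. Only 8.30% to 16.8% of those loci lay at that ratio, so the estimate is rough. Pluripotency markers summed to at most 1.74 FPKM in fibroblasts and at least 2575 in ESCs. The 21 fibroblast markers summed to 22910 to 23234 FPKM in fibroblasts, against 287 to 318 in ESC3, 430 to 489 in ESC7 and 363 to 390 in ESC11. The sorted ESC libraries and the fibroblast libraries thus carried the markers of their labels. The fibroblasts also held muscle markers at a summed 1958 to 2168 FPKM, against at most 5.65 in any ESC library. ACTA2 and DES, which fibroblasts in culture can also express, made up most of that sum, and the muscle-defining factors MYOD1 and MYOG were at 0 in all fibroblast libraries. In such bulk RNA, fewer cells of a type and less RNA per cell cannot be told apart.

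The members read on their own chromosomes as 4 clusters. In the table's coordinates, on the build Sscrofa10.2 that the submitters' processing notes name, the HOXA members lay on chromosome 18, with HOXA5 from 50054381 to 50066032, and the HOXD members on chromosome 15 from 91361475 to 91457433. All 10 HOXA and all 7 HOXD members there were on the plus strand and in the order of their numbers. The HOXB members lay on chromosome 12 from 24742221 to 24905884, out of numerical order, with 3 on the plus and 5 on the minus strand. HOXB5 and HOXB6 overlap there by 13412 bp on opposite strands. The HOXC members lay on chromosome 5 from 19519313 to 20169650, a span of 650 kb with genes out of numerical order and on both strands. HOXC4 is 447 kb from HOXC6 there, and the DNA repair gene SMUG1 lies in the gap. Whether counting used the strand is not stated, so values of HOXB5 and HOXB6 are uncertain.

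In the fibroblasts, the HOX pattern was centred on paralogs 4 to 8. Of 13 members with these numbers, 11 reached a mean of 1 FPKM, against 2 of 7 members numbered 1 to 3, 4 of 6 numbered 9 or 10, and 0 of 8 numbered 11 to 13. The summed level of all members was 453 ± 14.7 FPKM, and HOXC8 made up 74.9 ± 1.76% of it. With HOXC8 left out, paralogs 4 to 8 still held 72.6% of the sum, paralogs 1 to 3 held 15.4%, paralogs 9 and 10 held 10.9% and paralogs 11 to 13 held 1.10%. These shares describe 3 libraries and were not tested.

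**Figure D1:**
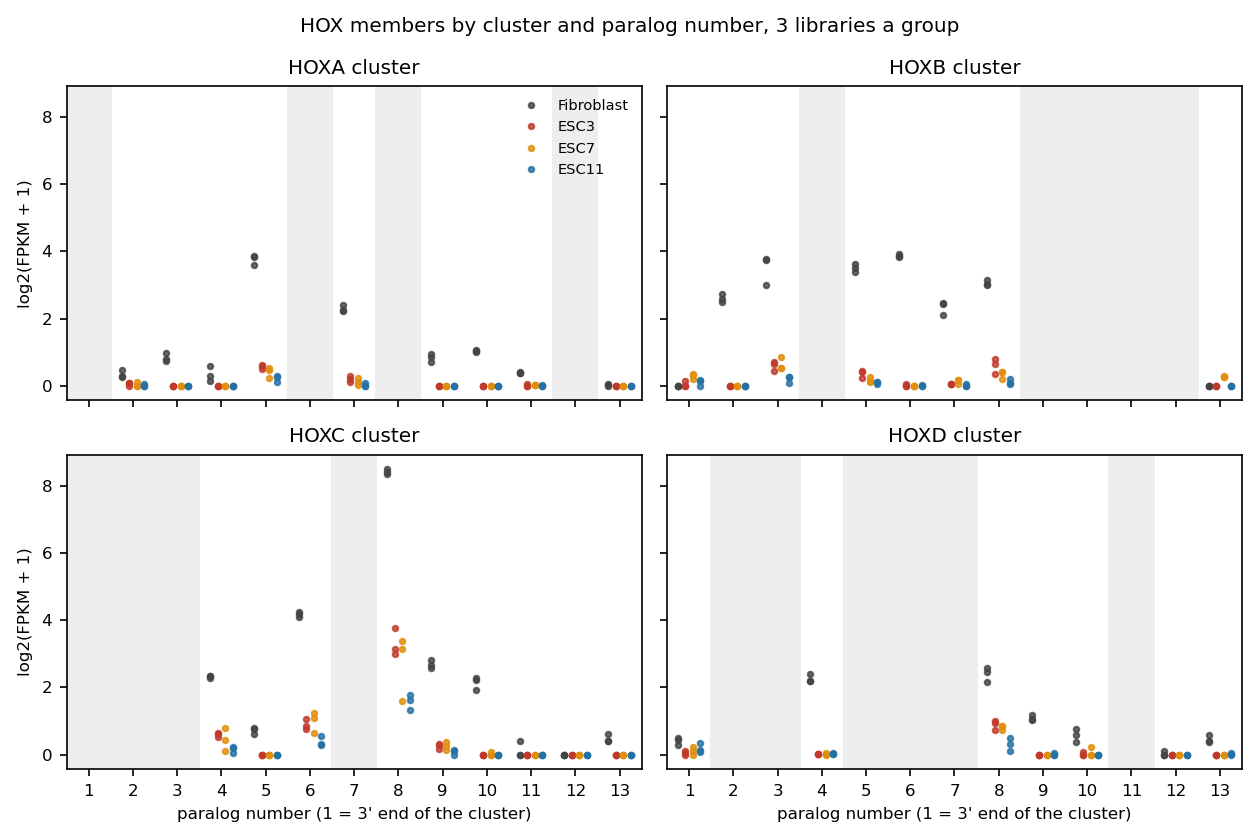
Level of the HOX members as log2(FPKM + 1), plotted against paralog number in 1 panel per cluster, with 1 point per library and colours for the 4 groups; grey bands are numbers not plotted. Fibroblast points rise in the middle of each cluster, with HOXC8 far above the rest. Among ESC points, only those of HOXC8, HOXC6 and HOXD8 include levels of at least 1 FPKM.

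HOXC8, a gene of the mid to lower thoracic level, stood first by far. Its locus (ENSSSCG00000021974, chromosome 5, 19677770 to 19679522) read 335, 324 and 359 FPKM in fibroblast libraries 1, 2 and 3. That mean of 339 ± 18.2 was 19.9 times the mean of the next member, HOXC6. The table gives the HOXC8 locus a span of 1753 bp within the stretch where genes are out of order, and FPKM divides by transcript length, so its level relative to other genes and its share of the sum depend on that gene model, whose part was not tested. HOXC6, which acts from the neck-to-thorax border downwards, read 18.0, 16.1 and 17.0 FPKM. Every HOXC6 library lay above every library of the members that follow it. A second HOXC6 row on the other strand of the same stretch, with an overlap of 8406 bp, read 2.14 to 2.81 FPKM in fibroblasts and was set aside.

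The next members came from HOXB and HOXA. HOXB6 read 14.3, 13.2 and 13.5 FPKM, and HOXA5, which patterns the lower neck and the lung, read 13.3, 13.5 and 11.1. HOXB3, a gene of the hindbrain and upper neck, read 12.6, 12.6 and 6.96, the widest spread relative to its mean among members above 10 FPKM. HOXB5 read 10.4, 11.3 and 9.39 FPKM. The ranges of HOXB6 and HOXA5 overlapped, as did those of HOXA5, HOXB3 and HOXB5, so the order within these sets is not beyond their spread. HOXB6 lay above HOXB3 and HOXB5 in every library. The locus of HOXB3 spans 31082 bp and that of HOXB6 14477 bp, long enough to take in neighbouring transcripts. The HOXB6 row has no Ensembl identifier and lies on the minus strand, opposite to HOXB5, HOXB7 and HOXB8. Its level and rank depend on that gene model, whose part was not tested.

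The HOXB cluster was read from HOXB2 to HOXB8. HOXB8 had 7.39 ± 0.455 FPKM, HOXB2, a hindbrain gene, 5.14 ± 0.542, and HOXB7 4.08 ± 0.688. The members at the ends of the cluster, HOXB1, the most anterior HOXB gene, and HOXB13, a gene of the tail and hindgut end, were listed at 0 in all 3 fibroblast libraries. No member analysed here lies between HOXB8 and HOXB13 in number, so where the level falls off on that side is not shown.

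In HOXA the level fell off on both sides of HOXA5 and HOXA7. HOXA7 read 3.80, 3.67 and 4.34 FPKM, and HOXA10, which patterns the lumbar region and the uterus, read 1.00, 1.11 and 1.06. HOXA9 at 0.807 ± 0.148 and HOXA3 at 0.805 ± 0.144 lay just under 1 FPKM. HOXA4 was at 0.285 ± 0.214, the weakest of the paralog 4 members, and HOXA2 at 0.286 ± 0.105. HOXA11, needed for forearm and lower leg, was at 0.320 ± 0.00923, and HOXA13, the marker of hand, foot and genital bud, at 0.0176 ± 0.0176.

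In HOXC the level extended further to the posterior side. HOXC9, a thoracic to lumbar gene, had 5.44 ± 0.544 FPKM, HOXC4 4.03 ± 0.120 and HOXC10, a lumbar gene, 3.45 ± 0.565. HOXC10 thus lay above HOXA10 and HOXD10 in every fibroblast library. The HOXC9 row is a locus of 752 bp without a strand, so its level depends on that gene model, whose part was not tested. HOXC5, between HOXC4 and HOXC6 in number, was at 0.656 ± 0.102. HOXC13, known from hair, nail and tail, was at 0.403 ± 0.124, HOXC11 was above 0 in 1 fibroblast library alone, at 0.330, and HOXC12 was listed at 0 in all 12 libraries of the study.

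In HOXD the members read were HOXD8 and HOXD4. HOXD8 read 4.51, 5.03 and 3.44 FPKM, and HOXD4, a neck gene, 4.29, 3.56 and 3.61. HOXD9 had 1.13 ± 0.111 and HOXD10 0.498 ± 0.199. HOXD13, the digit and genital gene, was at 0.373 ± 0.111, HOXD1 at 0.331 ± 0.0948, and HOXD12 was above 0 in 1 library, at 0.0805.

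Within a paralog group the clusters were not read alike. At number 8 the fibroblast means were 339 FPKM for HOXC8, 7.39 for HOXB8 and 4.33 for HOXD8. At number 9 they were 5.44 for HOXC9, 1.13 for HOXD9 and 0.807 for HOXA9. At number 4 HOXC4 and HOXD4 had 4.03 and 3.82, with overlapping ranges, while HOXA4 had 0.285. At number 5 HOXA5 and HOXB5 had 12.6 and 10.4 while HOXC5 had 0.656.

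The comparison of each ESC line with the fibroblasts asks what is left of this pattern in pluripotent cells. The summed level of the members was 11.6 to 16.5 FPKM in ESC3, 5.01 to 15.3 in ESC7 and 3.07 to 4.15 in ESC11, against 437 to 467 in fibroblasts. The mean was lower in each of the 3 lines for 31 of 34 members, the exceptions being HOXB1, HOXB13 and HOXC12. Every fibroblast library lay above every ESC library for 27 of the 33 members above 0 in some library, against 20.8% of all loci above 0. Only 3 members reached 1 FPKM in any ESC library: HOXC8 in all 9, HOXC6 in ESC3 library 1 and ESC7 libraries 2 and 3, and HOXD8 in ESC3 library 1. At the other end, 10 members above 0 in fibroblasts were listed at 0 in all 9 ESC libraries, namely HOXA3, HOXA4, HOXA9, HOXA10, HOXA13, HOXB2, HOXC5, HOXC11, HOXC13 and HOXD12.

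Loci were tested with limma on log2(FPKM + 1) if they had at least 1 FPKM in at least 3 libraries, and called with a log2 difference of at least 1 and a p under 0.05 after Benjamini-Hochberg adjustment. Of 18278 tested loci, 15.5% were called lower in ESC3, 14.3% in ESC7 and 15.5% in ESC11, and 28.6%, 29.2% and 27.4% were called higher. The median log2 difference of all tested loci was 0.43, 0.45 and 0.39. With median-ratio scaling, higher and lower calls in ESC3 came to 3771 and 3711 loci, so counts of higher calls are read against these shares. The filter was passed by 17 members, and all 17 were called lower in each line. Of these, 15 passed the filter only through the fibroblasts and so had to differ, and their number supports nothing about the members. HOXC8 and HOXC6 would have passed on the ESC libraries alone. Without the filter, 33 members were tested and 17 were again called lower in each line, with 0 higher. The 16 added members had at most 0.965 FPKM in any library. With a pseudocount of 1 none of them could reach a log2 difference of 1, so this fit could not call them in either direction.

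HOXC8 was lower than in fibroblasts with a log2 difference of -5.10 ± 0.40 (SE) in ESC3 (limma adjusted p = 4.3e-07), -5.70 ± 0.40 in ESC7 (limma adjusted p = 1.72e-07) and -6.83 ± 0.40 in ESC11 (limma adjusted p = 3.77e-08). HOXC6 had log2 differences of -3.27, -3.18 and -3.78 (each ± 0.14, SE) in the same order, with limma adjusted p of at most 4.83e-09. The log2 differences of HOXB6 lay between -3.88 and -3.85 and those of HOXA5 between -3.53 and -3.18. The pseudocount understates the change of low genes, so the smallest differences, near -1.04 for HOXA10, come from a gene at 1.06 FPKM in fibroblasts and 0 in all ESC libraries.

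The remnant was uneven along the clusters. It was measured as the mean FPKM of a line in percent of the fibroblast mean, for the 17 members with at least 1 FPKM in fibroblasts. HOXD8 kept most, 20.0% in ESC3, 17.8% in ESC7 and 5.73% in ESC11, although its fibroblast level was near those of HOXB7, HOXC4 and HOXD4. HOXC4 followed with 12.7%, 9.58% and 2.99%, but its ESC7 libraries ran from 1.99% to 18.1%, and without ESC7 library 3 its value there was 5.29%. HOXC8, the highest member in every group, was in the middle of the list at 2.70%, 1.89% and 0.595%.

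Paralogs of equal rank differed in what was left. HOXB6, the third highest member in fibroblasts, kept 0.131% in ESC3, under 0.001% in ESC7 and 0.0437% in ESC11. Its row lies on the strand opposite to HOXB5, HOXB7 and HOXB8, so these values depend on a gene model whose part was not tested. Each HOXB6 value rests on 1 library, the highest being ESC3 library 1 at 0.0538 FPKM, and HOXB6 shares its place with HOXB5, which kept 2.93%, 1.31% and 0.765%. HOXC6 kept 5.10%, 5.96% and 1.85% in the same order. HOXD4 kept 0.419%, 0.619% and 0.584%, while HOXC4 kept over 5 times as much in each line. HOXB2 at 5.14 FPKM in fibroblasts was at 0 in all ESC libraries, while its neighbour HOXB3 kept 4.98%, 5.34% and 1.51%. HOXC10 was above 0 in 1 ESC library, ESC7 library 3, at 0.0691 FPKM. Its second row, on a scaffold outside the chromosomes and set aside, read 0.156 to 0.532 FPKM in fibroblasts and was above 0 in 4 ESC libraries, at most 0.290. HOXD9 was above 0 in 1, ESC11 library 1, at 0.0274.

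The median percent left was 2.93 in ESC3, 2.41 in ESC7 and 0.765 in ESC11 for the 17 HOX members. For the 21 fibroblast markers it was 1.03, 0.824 and 0.759, with the highest at 23.2% for TWIST2 in ESC3, 34.9% for TWIST2 in ESC7 and 26.2% for SPARC in ESC11. LUM and TWIST1 were at 0 in all ESC3 libraries and POSTN in all ESC11 libraries. The order of the summed markers over the lines rested on SPARC, at 125 to 130 FPKM in ESC3, 273 to 304 in ESC7 and 213 to 245 in ESC11. Without SPARC the other markers summed to 158 to 188, 157 to 185 and 146 to 150 FPKM. Their part in the HOX remnant was not tested.

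**Figure D2:**
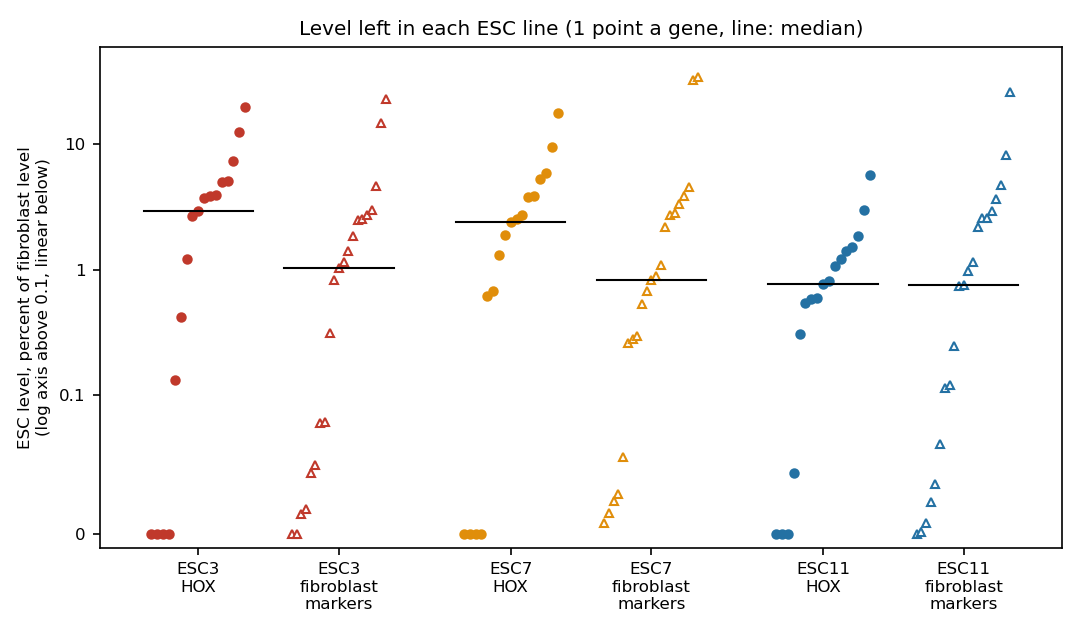
Level in each ESC line as a percent of the fibroblast mean, with 1 point per gene, for HOX members with at least 1 FPKM in fibroblasts (filled circles) and for fibroblast markers (open triangles); the axis is logarithmic above 0.1 and linear below, and lines are medians. The HOX medians are 2.93, 2.41 and 0.765, and the marker medians 1.03, 0.824 and 0.759.

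The lines were then compared with each other in the members that had some signal. HOXC8 read 7.91, 7.04 and 12.5 FPKM in ESC3 libraries, then 2.01, 7.92 and 9.32 in ESC7 libraries, with 2.42, 1.54 and 2.09 for ESC11. All ESC3 libraries lay above all ESC11 libraries, and ESC7 library 1 lay among the ESC11 libraries, apart from the other 2 of its line. HOXC8 was higher in ESC3 than in ESC11 by a log2 difference of 1.72 ± 0.40 (SE; limma adjusted p = 0.0114), in 3 of 3 ESC3 libraries, and it was the 1 member called of 17, where 1.49% of tested loci were called higher. The call was lost when libraries were scaled to the same summed FPKM (log2 difference 0.67, adjusted p = 0.154), a scaling that moved the median of all loci to -1.16, and with a pseudocount of 5 (log2 difference 0.99).

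ESC7 and ESC11 were not separated by a call in any of the 17 members, where 2.14% of tested loci were called higher in ESC7. With limma, 5 members had an unadjusted p under 0.05 and 2, HOXC6 and HOXD8, an adjusted p under 0.05 with a log2 difference under 1. HOXC8 differed by 1.12 ± 0.40 (SE; limma adjusted p = 0.0557). Without ESC7 replicate 1 the difference was 1.68 (adjusted p = 0.00048), and the member was called. Between ESC7 and ESC3, where 2.34% of loci were called higher in ESC7, 0 members were called, with 2 at an unadjusted p under 0.05 and 0 at an adjusted one. HOXC8 differed there by -0.60 ± 0.40 (SE), and a miss of the threshold does not show that the lines were alike.

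The 8 members above 0 in all 9 ESC libraries each had their lowest mean in ESC11, and in each of them library 1 was the lowest of ESC7. HOXC6 libraries of ESC3 read 1.09, 0.715 and 0.807 FPKM, those of ESC7 0.570, 1.36 and 1.12, and those of ESC11 0.243, 0.476 and 0.227. HOXD8 read 1.01, 0.922 and 0.669 in ESC3 libraries, then 0.680, 0.819 and 0.810 in ESC7 libraries, with 0.250, 0.410 and 0.0833 for ESC11. For both genes all ESC3 and all ESC7 libraries lay above all ESC11 libraries, and ESC3 and ESC7 overlapped. HOXB8 read 0.734, 0.588 and 0.296 in ESC3 libraries, then 0.149, 0.351 and 0.348 in ESC7 libraries, with 0.0726, 0.0449 and 0.152 for ESC11. Here ESC3 lay above ESC11, and ESC7 overlapped with both by its library 1. HOXA5, HOXB3, HOXB5 and HOXC4 had ESC means between 0.0793 and 0.572 FPKM.

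**Figure D3:**
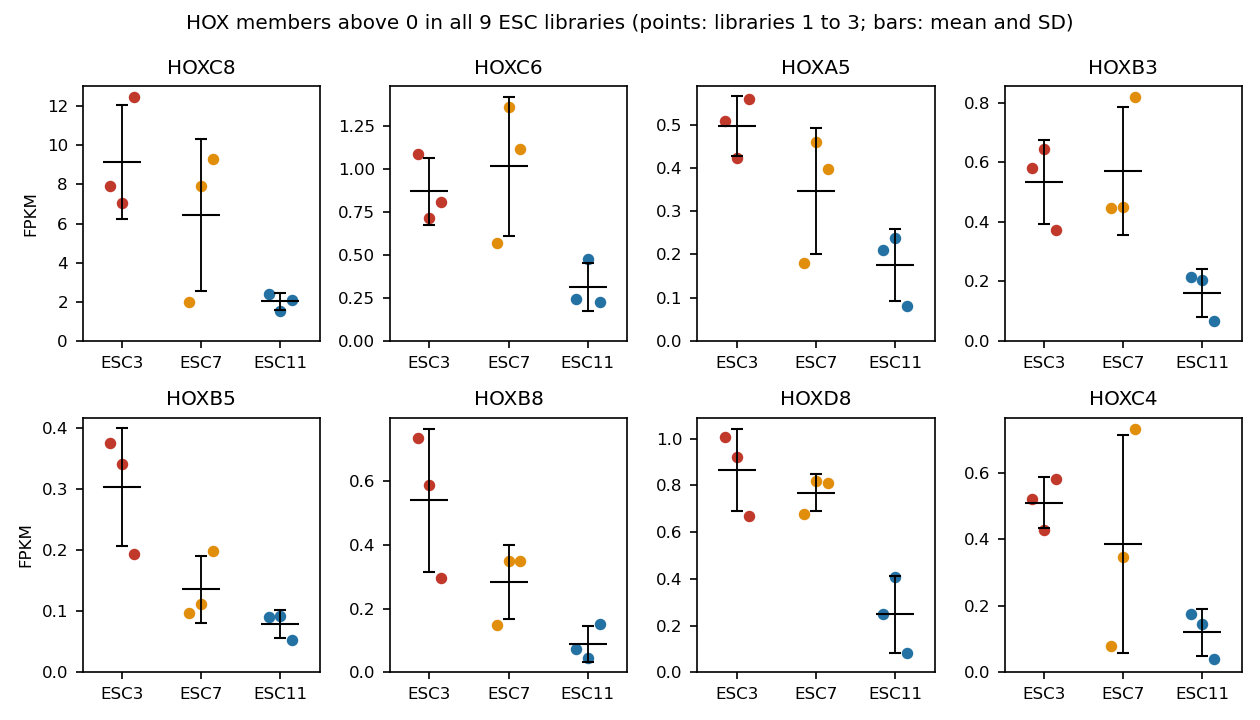
FPKM of the 8 HOX members above 0 in all 9 ESC libraries, with 1 panel per gene and its own linear axis from 0, points for libraries 1 to 3 of each line and bars for mean and SD. ESC11 has the lowest mean in all 8 panels, and ESC7 library 1 is the lowest of its line in all 8.

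Over the 23 members above 0 in some ESC library, every ESC3 library lay above every ESC11 library for 11, against 18.2% of all loci above 0 in some ESC library, and the reverse held for 0 members and 16.2% of loci. The 11 were HOXA5, HOXA7, HOXB3, HOXB5, HOXB7, HOXB8, HOXC4, HOXC6, HOXC8, HOXC9 and HOXD8, all numbered from 3 to 9. ESC7 lay wholly above ESC11 for 9 members, against 24.2% of loci, and wholly above ESC3 for 2, against 24.3%. ESC11 lay wholly above ESC7 for 0 members and 14.1% of loci, and ESC3 wholly above ESC7 for 0 members and 17.7% of loci. Apart from HOXC8, the means of these members differ by under 1 FPKM between lines. Low values near the worth of 1 fragment also depend on depth. By the most common ratio to fibroblast library 1, that worth was 1.26 to 1.36 in ESC3, 1.11 to 1.16 in ESC7 and 0.827 to 1.05 in ESC11. The part of depth in these differences was not tested.

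HOXB1 and HOXB13, at 0 in the fibroblasts, were the 2 members read in ESCs alone. HOXB1, a hindbrain gene that answers to retinoic acid, read 0.291, 0.163 and 0.257 FPKM in ESC7, 0.0997, 0.124 and 0 in ESC11, and 0.120, 0 and 0 in ESC3. HOXB13 read 0.230, 0.217 and 0.198 in ESC7 and was listed at 0 in the other 9 libraries. These genes lie at opposite ends of the HOXB cluster, and for both every ESC7 library lay above every library of ESC3 and ESC11. Both stayed below 1 FPKM and so outside the tested loci. In the limma fit without the filter, ESC7 exceeded ESC3 by a log2 difference of 0.25 for HOXB1 (adjusted p = 0.00925) and 0.28 for HOXB13 (adjusted p = 5.24e-06). It exceeded ESC11 by 0.20 (limma adjusted p = 0.0323) and 0.28 (limma adjusted p = 7.13e-06), and all 4 differences are under the 1 needed for a call. Values at this level could not reach that difference with the pseudocount of 1. The HOXB13 fit also pools ESC7 with groups at 0 in all their libraries, which show no spread.

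Members with some ESC signal outside these groups were few and low. HOXD1 was above 0 in 7 of 9 ESC libraries, at most 0.266 FPKM in ESC11 library 2, and its ESC and fibroblast ranges overlapped. HOXA2, HOXA11, HOXD10 and HOXD13 had at most 0.179 FPKM in any ESC library. HOXA7, HOXB7 and HOXC9 had at most 0.311.

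The clusters also held 15 loci without a gene symbol between or beside the members: 3 in HOXA, 3 in HOXB, 6 in HOXC and 3 in HOXD. Every fibroblast library lay above every ESC library for all 15, against 20.8% of all loci above 0, and 10 were at 0 in all ESC libraries. All 15 carry XLOC identifiers, and with ESC levels at or near 0 they may be listed only through fibroblast reads. The share over all loci is then not a like background, and the count of 15 supports nothing about the clusters. The strongest, XLOC_017976, starts 190 bp past the end coordinate of HOXC8 (chromosome 5, 19679713 to 19681810). HOXC8 is on the minus strand, so this is its upstream side. XLOC_017976 had 5.79 ± 0.470 FPKM in fibroblasts and 0 in ESCs. Whether this locus belongs to HOXC8 was not tested.

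Genes beside the clusters were compared as a background of place. Of 26 listed neighbours 19 were tested, and 6 were called higher and 4 lower in ESC3, with 7 higher and 5 lower in ESC7 and in ESC11. Their median log2 differences were 0.23, 0.18 and -0.02 (all loci 0.43, 0.45 and 0.39). The 6 or 7 higher calls of 19 are near the 27.4% to 29.2% of all loci. The 4 or 5 lower calls stand beside 14.3% to 15.5% of all loci, and counts this small are not read as a result. CBX1, a heterochromatin protein gene beside HOXB, had 47.2 FPKM in fibroblasts and 102 to 115 in the lines and was called higher in each. HNRNPA1, an RNA-binding protein gene beside HOXC, went from 464 to between 1272 and 1497 FPKM, and NFE2L1, a stress-response factor gene beside HOXB, from 222 to between 83.1 and 95.4. EVX1 and EVX2, homeobox genes next to HOXA13 and HOXD13, were at 0 in every library.

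HOX proteins bind DNA together with TALE homeodomain cofactors of the PBX, MEIS and PKNOX families. Of 6 tested cofactors 3 were called higher and 1 lower in each line. These counts are too small to set against the 27.4% to 29.2% of all loci called higher and 14.3% to 15.5% called lower. The lower one was MEIS1, at 16.4 ± 2.98 FPKM in fibroblasts, 0.817 ± 0.485 in ESC3, 1.01 ± 0.787 in ESC7 and 0.0866 ± 0.0259 in ESC11. Its log2 difference from fibroblasts was -3.29, -3.18 and -3.99. PBX2 rose from 41.1 to between 94.3 and 111 FPKM, MEIS3 from 9.62 to between 26.2 and 28.4, and PKNOX2 from 1.29 to between 19.0 and 28.0. MEIS1 passed the filter only through the fibroblasts and PKNOX2 only through the ESCs. Both genes thus had to differ, and their calls support nothing about the cofactors.

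CDX factors and posterior growth factors act upstream of HOX genes in the tail bud. Of 5 tested genes, 3 were called higher in ESC3 and ESC7 and 4 in ESC11, with 0 lower. Of all tested loci, 28.6%, 29.2% and 27.4% were called higher in ESC3, ESC7 and ESC11, and 15.5%, 14.3% and 15.5% lower. Of the 5 genes, 4 passed the filter only through the ESCs and so had to differ, and the counts support nothing about the list. CDX4 was at 0 in all fibroblast libraries and had 16.6 ± 0.790 FPKM in ESC3, 9.72 ± 1.06 in ESC7 and 10.98 ± 1.04 in ESC11. SALL4 and LIN28B, which are also pluripotency genes, reached 55.5 to 64.3 and 51.2 to 74.3 FPKM from under 0.5. The posterior HOX members numbered 11 to 13 remained under 0.3 FPKM in every ESC library beside this CDX4 level.

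Retinoic acid signalling sets HOX expression in the embryo. Of 18 tested genes of the pathway, ESC3 had 4 higher and 9 lower calls, ESC7 had 3 and 7, and ESC11 had 3 and 10. Of all tested loci, 28.6%, 29.2% and 27.4% were called higher and 15.5%, 14.3% and 15.5% lower, in the same order. The median log2 differences of the pathway genes were -1.05, -0.72 and -1.10 where all tested loci had 0.43, 0.45 and 0.39. Of the 18 genes, 6 did not pass the filter on the ESC libraries alone, and 4 not on the fibroblast libraries alone. CRABP2, which carries retinoic acid into the nucleus, fell from 495 to between 193 and 216 FPKM, and the receptor gene RARA from 46.9 to between 19.1 and 21.2.

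Polycomb proteins repress HOX clusters and trithorax proteins keep them active. Of 23 tested Polycomb genes, 8 were called higher and 4 lower in ESC3 and ESC11, and 7 and 4 in ESC7, a share of higher calls near that of all loci (28.6%, 29.2% and 27.4%). JARID2, which recruits the complex, rose from 11.1 to between 71.9 and 99.6 FPKM, and PHC1 from 10.5 to between 181 and 211. Of 12 trithorax and H3K27 demethylase genes 5 were called higher and 1 lower in each line. Of all tested loci, 27.4% to 29.2% were called higher and 14.3% to 15.5% lower. KMT2B rose from 7.00 to between 15.9 and 17.9 FPKM, and KDM6A, which removes the Polycomb mark, from 12.1 to between 35.7 and 39.6.

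Other genes of body position were listed as well. Of 20 tested genes of trunk and limb position, 2 were called higher in each line, and 17, 16 and 17 lower in ESC3, ESC7 and ESC11, with medians of -3.06, -3.13 and -3.19. Of the 20, 15 did not pass the filter on the ESC libraries alone, so these counts support nothing about the list. PRRX2, a limb and trunk mesenchyme homeobox gene, had 163 ± 9.30 FPKM in fibroblasts and at most 1.41 in any ESC library, and PRRX1 had 85.5 in fibroblasts and at most 1.03 as a line mean. TBX15, a gene of trunk skin and skeleton, ranged from 12.8 to 182 FPKM between the fibroblast libraries and reached at most 0.146 in ESCs. OTX2, a head gene that also marks primed pluripotent cells, was at 0 in fibroblasts and at 72.2, 38.4 and 61.2 FPKM in ESC3, ESC7 and ESC11. These lists were chosen with earlier results of these data known, and their medians are given as a description.

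**Figure D4:**
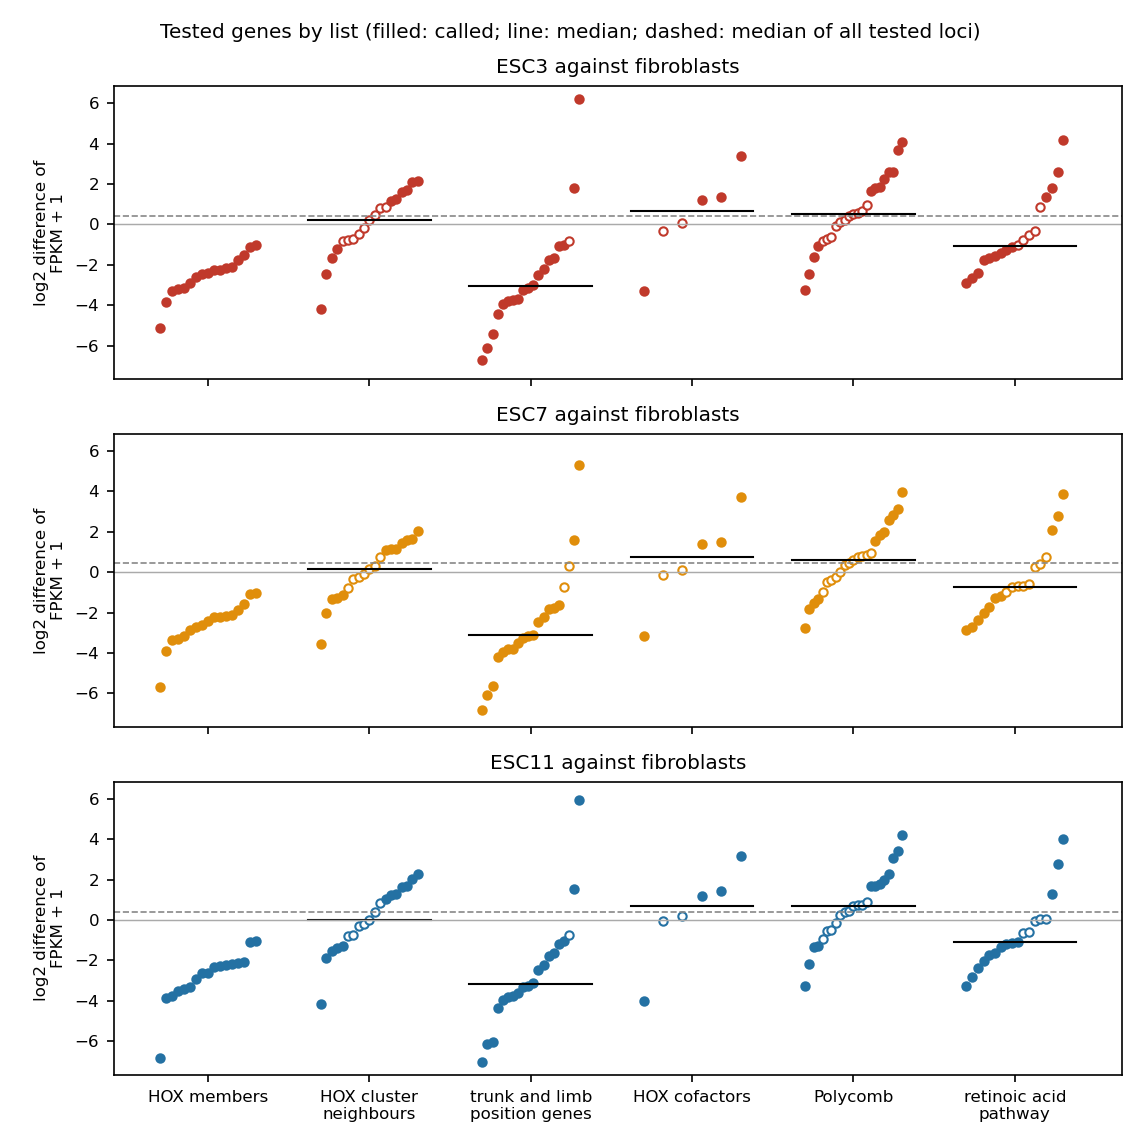
Log2 difference of FPKM + 1 between each ESC line and the fibroblasts, with 1 point per tested gene in 6 lists, filled where called; solid lines are medians of the lists other than HOX and the dashed line the median of all tested loci. The HOX members lie below 0, where the filter placed 15 of the 17, and the neighbours of the HOX clusters have medians of 0.23, 0.18 and -0.02.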

How the data were processed

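The deposited values are FPKM per locus and library, computed by the authors. Cufflinks 2.1.1, STAR 2.4.0b and the build Sscrofa10.2 appear in the submitters' processing notes without a role; strand use and the handling of multiply mapped reads are not given in the sources used here. All 12 columns matched a labelled sample. FPKM was used as log2(FPKM + 1) with no further scaling, for 18278 loci with at least 1 FPKM in at least 3 libraries. One limma fit (version 3.58.1, R version 4.3.3, variance trend) covered the 4 groups, and 6 comparisons were made, two-sided. The fit was tested on simulated data. The rule named the HOX members and, of other lists, up to 4 called members with the highest mean FPKM; some genes that fit it are not reported here, and SMUG1, EVX1, EVX2 and the markers were named outside this rule. Members and lists were chosen with earlier results of these data known. Alternatives were other pseudocounts, filters, scalings, variance settings, a replicate term, summed rows and leaving out each library with the tested loci kept. Tables and figures used Python 3.11.15, pandas 2.3.3, numpy 2.4.6 and matplotlib 3.10.9. RefSeq Sscrofa11.1 was used for gene names alone.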

Additional observations from a re-analysis of the deposited data

Results flagged for a closer look

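HOXC8 differed between the lines in its distance from the fibroblasts: by the test of ESC3 against ESC11 itself, it was higher in ESC3 by 1.72 on the log2 scale (limma adjusted p = 0.0114). The ESC3 libraries read 7.04 to 12.5 FPKM and the ESC11 libraries 1.54 to 2.42. Over the alternatives its adjusted p ranged from 0.000256 to 0.154, and the lowest difference was 0.67, with scaling to the same sum; the call was lost there and with a pseudocount of 5, where the difference was 0.99.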

How the results depend on the processing

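No called difference of a HOX member changed direction under the alternatives run. Differences between lines that were not called changed sign in 25 fits of a member, each with a difference of at most 0.15 as reported. Against fibroblasts, the count of members called lower was 9 in each line with a pseudocount of 5 and 7 in each line with a filter at 5 FPKM, which leaves fewer members to test, and 17 in every fit that left out 1 library. The 8 members lost with the larger pseudocount then had log2 differences of -0.28 to -0.85. For ESC3 against ESC11 the count of 1 became 9 with a pseudocount of 0.1, 0 with a pseudocount of 5 (HOXC8 then at 0.99), 0 with scaling to the same sum (HOXC8 at 0.67), and 7 with the adjusted p alone, and stayed at 1 without each library in turn. For ESC7 against ESC11 the count of 0 became 3 with a pseudocount of 0.1, 2 with the adjusted p alone and 1 without ESC7 replicate 1, so that it ranged from 0 to 1 over the fits without a library. For ESC7 against ESC3 it stayed at 0. Scaling by median ratios changed the split of all loci in ESC3 against fibroblasts from 5230 higher and 2832 lower to 3771 and 3711 and changed no call of a member. Replicate numbers did not pair the libraries: correlations of same-numbered libraries ran from -0.09 to 0.087 and 2 of 12 libraries correlated best with their own number. With a replicate block, 17 members were lower in each line, 1 was higher in ESC3 than in ESC11, and 0 were called in the other comparisons. After the data were seen, percents left were also taken without each library of a line and marker sums without SPARC. Depth limits values near 1 fragment, and a member listed at 0 may be expressed below that level.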
